A study of Mus musculus with 2 samples.

Results

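The Jun promoter 4C profile is the set of read counts obtained from a single viewpoint next to the transcription start of Jun in untreated mouse bone marrow-derived macrophages (BMDMs). Its members are all DpnII fragment ends of chromosome 4 (build mm9) that occur once in the genome and lie 5 kb or more from the viewpoint fragment at position 94721073. There are 496687 such ends, out of 1082476 ends with a value in both libraries of the series. The cells were of C57BL/6 background, carried no transgene or treatment named in the labels (UT in the title) and were labelled day 7 of differentiation, in medium conditioned by L929 cells; the growth protocol gives 6 days of culture. There was 1 Jun library and 1 library with a Ccl2 viewpoint, so no test between samples was possible. All values describe the Jun library unless the Ccl2 library is named. The labels do not say how many mice or cultures went into it. 4C measures ligation and not expression, so the macrophage label could not be checked against marker genes.

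Jun encodes a basic leucine zipper protein that pairs with Fos family members to form AP-1, a transcription factor that is switched on rapidly when macrophages meet microbial products. Promoters contact distant enhancers by chromatin looping, and such contacts are mostly held within stretches of the chromosome called topological domains. In 4C, cross-linked chromatin is cut and religated, and inverse PCR from the viewpoint recovers the DNA joined to it. The number of reads at a fragment end therefore reflects ligation to the Jun promoter region. It is not a count of ligations, since PCR copies are not told apart and reads also go with the restriction map. The landmarks were 15 protein-coding genes. On the side of lower coordinates, downstream of Jun, these are Mysm1, Eqtn, Tek, Ift74, Plaa and Caap1. On the side of higher coordinates, upstream of Jun, they are Fggy, Hook1 and 7 Cyp2j genes.

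The promoter sequences shown are those of Jun, of Mysm1 as the nearest landmark on the lower side, and of Fggy and Hook1, between whose bodies the covered stretch of the higher side ended. They are shown because the restriction sites they hold or lack bear on how the genes were placed on the fragment map. They are RefSeq entries of 300 bases in GRCm38.p6, 250 before and 50 after the gene start, written 5′ to 3′ along the gene. Capitals mark the DpnII site GATC, the site GTAC of the second cutter and, in Jun, TGACATCA, a motif that AP-1 proteins bind.
Jun, chr4:95052173-95052472, minus strand: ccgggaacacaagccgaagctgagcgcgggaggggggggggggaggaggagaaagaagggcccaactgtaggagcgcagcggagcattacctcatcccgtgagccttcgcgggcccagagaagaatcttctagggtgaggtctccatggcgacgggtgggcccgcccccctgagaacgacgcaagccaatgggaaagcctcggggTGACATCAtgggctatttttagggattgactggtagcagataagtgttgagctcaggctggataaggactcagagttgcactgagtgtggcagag
Mysm1, chr4:94979051-94979350, minus strand: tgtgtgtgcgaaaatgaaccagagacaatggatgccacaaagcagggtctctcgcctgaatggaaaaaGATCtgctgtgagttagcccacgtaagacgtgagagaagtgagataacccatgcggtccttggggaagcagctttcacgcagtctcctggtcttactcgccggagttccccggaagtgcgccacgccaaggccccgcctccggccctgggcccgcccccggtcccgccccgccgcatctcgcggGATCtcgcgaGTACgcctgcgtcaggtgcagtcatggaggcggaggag
Fggy, chr4:95557257-95557556, plus strand: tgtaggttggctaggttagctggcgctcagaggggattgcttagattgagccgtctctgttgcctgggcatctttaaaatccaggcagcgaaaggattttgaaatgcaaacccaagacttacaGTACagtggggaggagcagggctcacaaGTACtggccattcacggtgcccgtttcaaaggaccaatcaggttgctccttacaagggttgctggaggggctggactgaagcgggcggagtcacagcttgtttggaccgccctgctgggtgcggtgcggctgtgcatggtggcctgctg
Hook1, chr4:95967129-95967428, plus strand: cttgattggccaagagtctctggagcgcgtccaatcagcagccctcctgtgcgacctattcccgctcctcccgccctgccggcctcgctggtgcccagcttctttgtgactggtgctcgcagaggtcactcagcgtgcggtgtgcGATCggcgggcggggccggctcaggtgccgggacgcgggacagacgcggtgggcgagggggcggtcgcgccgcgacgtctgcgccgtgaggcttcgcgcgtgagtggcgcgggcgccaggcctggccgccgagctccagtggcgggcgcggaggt

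The Jun entry held no GATC and no GTAC, so DpnII leaves it on 1 uncut stretch. TGACATCA, searched on both strands, begins 45 bases before its start. It is found in 3.62% of 32851 promoter entries of the mouse table and in no other of the 17 entries of Jun and the landmarks. TGACTCA, another AP-1 motif, was in 5.20% of all entries and in none of the 17.

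The gene table is of GRCm38.p6 and the reads are placed on mm9, so genes were placed by their distance from Jun. These distances were checked with the restriction sites in the promoter sequences. Between -627 and 2971 kb from Jun, 15 genes with a promoter entry carry 28 GATC sites. With 1 common shift, all 28 fell on a fragment boundary of the deposited file within 16 bp. Among the 75001 shifts tried, none outside its close neighbourhood reached more than 11. With the same shift, 22 of 27 GTAC sites fell on a listed site of the second cutter. The other 5 lay between the first and the last listed site of their fragment, and inner sites are not listed. By this map the viewpoint fragment, 138 bp long, lies 2.17 kb upstream of the Jun start. Distances below are in kb from the viewpoint fragment, with genes at their GRCm38 distance from the Jun start, so a gene border is off by that amount.

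Outside the 5 kb zone the library held 1098887 reads on 9507 ends, which is 1.91% of the 496687 members. Of the reads, 78.3% lay within 1000 kb. From 5 to 1000 kb, 51.4% of the unique ends of both sides together had a read. The higher side alone had 84.9% and the lower side 16.1%. These shares are set beside the landmarks, but they include the ends of the landmarks and are no independent background. Reads carry no molecular identifiers, so exact (Clopper-Pearson) 95% intervals cover counting error only and not differences between cultures. They also take ends as independent, though both ends of a fragment can enter, so they may be too narrow.

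**Figure D1:**
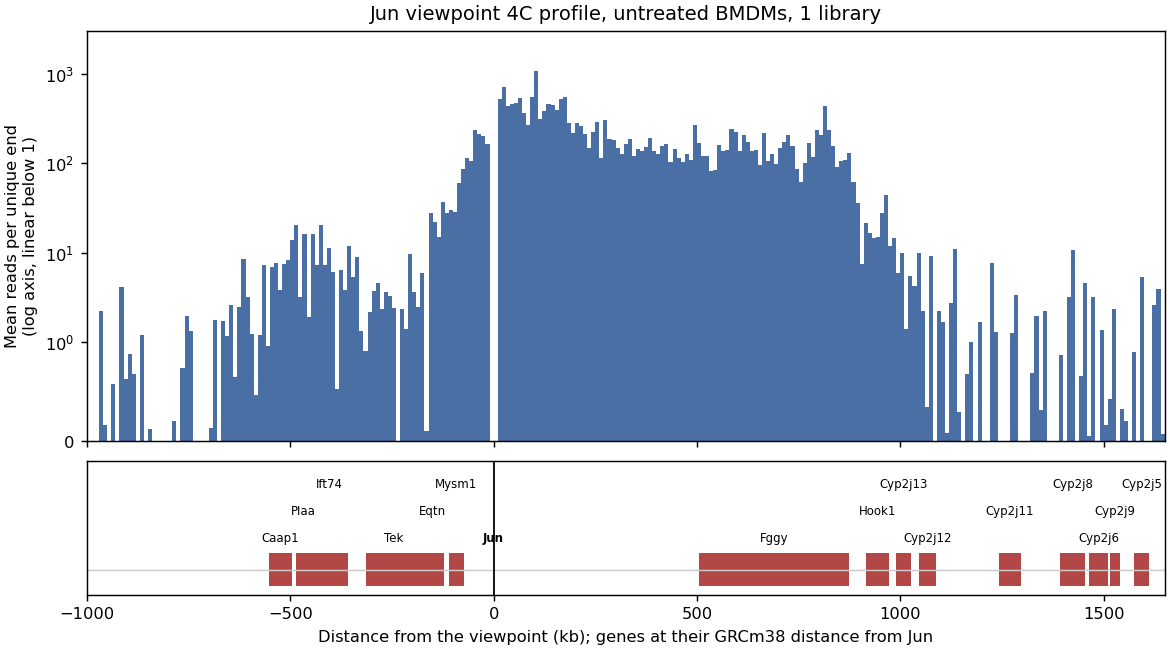
Mean reads per unique fragment end in 10 kb windows along chromosome 4, against the distance from the Jun viewpoint in kb, with the 15 landmark genes as boxes below; windows within 10 kb of the viewpoint are left out. The profile stays above 60 reads per end from 10 to 890 kb on the higher side, while on the lower side it has dropped below 10 by 160 to 180 kb and is higher again around Ift74, Plaa and Caap1.

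The higher side began with 500 kb that hold no protein-coding gene. Between 5 kb and the start of Fggy at 505 kb, 1751 of 1889 ends had a read (92.7%, 91.4 to 93.8%). They held 560013 reads, 51% of all reads of the profile. The mean was 804 reads per end in the first step (5 to 20 kb) and 492 in the next (20 to 50 kb). It was 210 at 200 to 250 kb and 142 in the last step before Fggy (450 to 505 kb). The decline was not even: the mean was 432 reads per end at 50 to 100 kb and higher, 533, at 100 to 150 kb. Several long noncoding RNA genes lie in this stretch, among them Junos, which begins beside the Jun start and reaches 117 kb.

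Fggy, a gene for a carbohydrate kinase, was covered from end to end. It spans 505 to 875 kb from Jun, and 1228 of its 1443 ends had a read (85.1%, 83.2 to 86.9%). This share was near the 84.9% of all higher-side ends from 5 to 1000 kb, which include those of Fggy. Its body held 219442 reads, 20.0% of the profile, at 152 reads per end. Within the gene there was no steady decline with distance. In 8 equal steps away from Jun the means were 111, 191, 159, 142, 155, 108.1, 247 and 120 reads per end. The nearest and the farthest step thus lay within 10 reads per end of each other, and the highest was the seventh, which spans 782 to 829 kb. The slope of log10 mean reads per end on log10 distance over 10 kb windows was -0.64 from 20 to 505 kb (48 windows) and 0.10 inside Fggy (37 windows). With the ends on fragments that hold a GTAC site only, the slopes were -0.64 and -0.04.

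**Figure D2:**
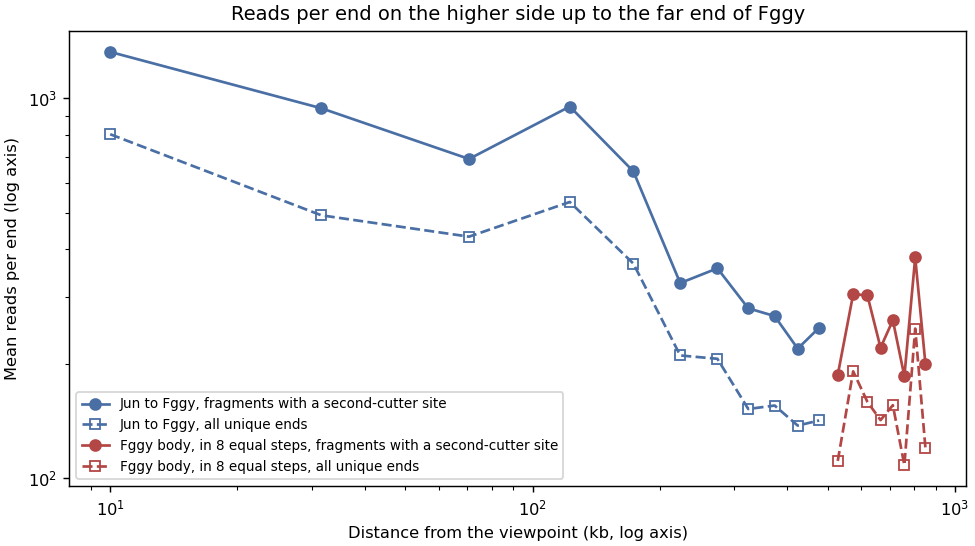
Mean reads per end against distance from the viewpoint, both on log axes, in steps from 5 kb to the far end of Fggy, for all unique ends (open squares) and for ends on fragments with a site of the second cutter (filled circles). Over all ends, means go from 804 to 142 reads per end between Jun and Fggy, with a rise at 100 to 150 kb, and then move between 108.1 and 247 inside Fggy.

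The covered stretch ended just beyond Fggy and before Hook1. In the 10 kb window from 870 to 880 kb, which holds the far border of Fggy, 33 of 38 ends had a read, at 129 reads per end. The next windows had 24 of 37 ends at 61.2 reads per end, 12 of 27 ends at 35.5 and, from 900 to 910 kb, 9 of 32 ends at 7.38. All 3 windows lie between the end of Fggy and the start of Hook1 at 915 kb, so the drop in level came before Hook1. The whole stretch of 40.2 kb between these genes had 47.9% of its ends covered (39.4 to 56.4%, 142 ends). With landmarks 20 kb nearer to or farther from Jun, coverage of this stretch was 73.0% or 31.9%. Its reads per kb were then 359 or 31.0, in place of 142. With genes moved only by the 2.17 kb offset of the viewpoint, it had 54.1% coverage and 192 reads per kb.

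Hook1, which encodes an adaptor that links cargo to microtubule motors, came next with 58 of 138 ends covered (42.0%, 33.7 to 50.7%) and 28.6 reads per end. Fggy thus stood at 5.32 times Hook1 in reads per end. With all landmarks placed 20 kb nearer to Jun this ratio was 9.09, and Hook1 had 41.4 reads per kb in place of 67.7. Between Hook1 and Cyp2j13, 23.5% of 51 ends had a read (12.8 to 37.5%), an interval that overlaps that of Hook1, and their mean was 10.4 reads per end.

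The Cyp2j genes, cytochrome P450 genes whose products turn arachidonic acid into epoxides, were covered far less often than Hook1. Their cluster from 990 to 1612 kb had 76 of 1790 ends covered (4.25%, 3.36 to 5.29%) and 1.88 reads per end, so Hook1 was 15.2 times higher per end. Cyp2j13, the first, had 17 ends covered (16.8%, 10.1 to 25.6%). Cyp2j12 followed with 6 of 145 (4.14%) and Cyp2j11 with 4 of 151 (2.65%). Cyp2j8 had 4.49%, Cyp2j6 4.43%, Cyp2j9 3.90% and Cyp2j5 1.04% of ends covered. Only the interval of Cyp2j13 lies above that of the cluster as a whole, and the intervals of the other 6 overlap each other.

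**Figure D3:**
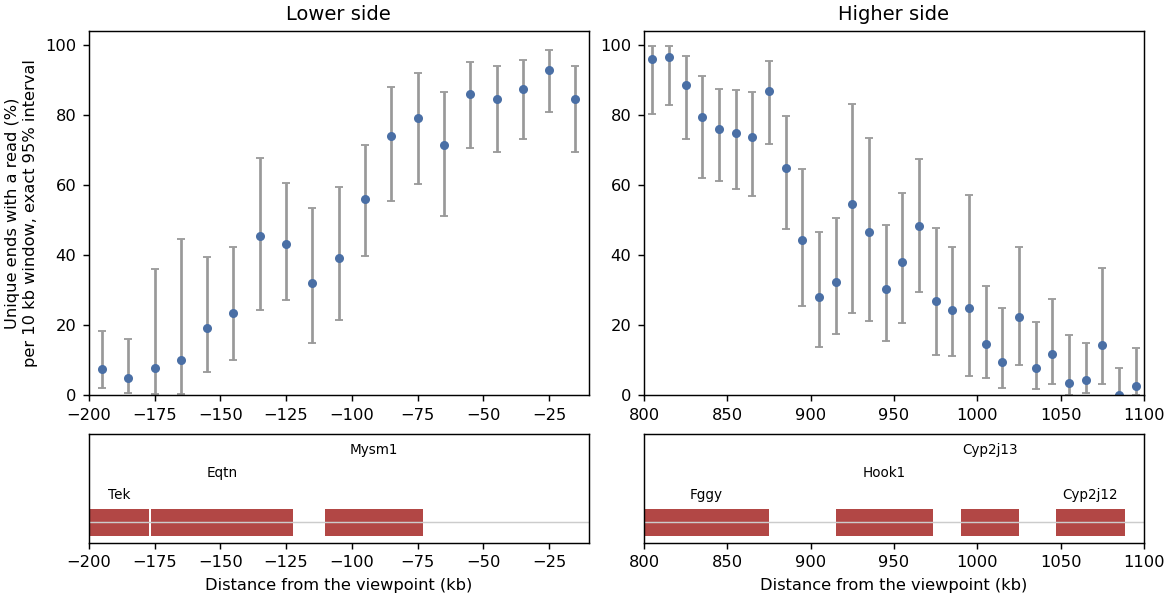
Percentage of unique ends with a read in 10 kb windows, with exact 95% intervals, against distance from the viewpoint in kb, on the lower side up to 200 kb (left) and on the higher side from 800 to 1100 kb (right), with the landmark genes below. On the right, 86.8% of ends are covered in the window at the far border of Fggy and 28.1% in that from 900 to 910 kb; on the left it is 79.3% at 70 to 80 kb and 39.3% at 100 to 110 kb, both within or at the border of Mysm1.

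On the lower side the level was already lower before the first landmark, with 234 reads per end at 40 to 50 kb and 105 at 50 to 60 kb. The stretch between Jun and Mysm1, 5 to 73 kb away, had 214 of 247 ends covered (86.6%, 81.8 to 90.6%) and 210 reads per end. Mysm1, a gene for a deubiquitinase of histone H2A, had 79 of 128 ends covered (61.7%, 52.7 to 70.2%) and 44.9 reads per end. The stretch before it held 4.67 times as many reads per end. In reads per kb, Mysm1 had 155, and 103 or 242 with landmarks 20 kb farther from or nearer to Jun. The decline ran through the gene body: from 70 to 80 kb, at the gene start, 23 of 29 ends had a read, and from 100 to 110 kb 11 of 28. Eqtn, a gene for a protein of the sperm acrosome, had 38 of 124 ends covered (30.6%, 22.7 to 39.6%) and 24.8 reads per end. Its windows were uneven: 150 to 160 kb had 5 of 26 ends covered at 28.0 reads per end, and 160 to 170 kb 1 of 10 ends. Placement mattered here, since with landmarks 20 kb farther from Jun coverage of Eqtn was 12.0%, against 8.97% in Tek. With genes moved only by the 2.17 kb offset of the viewpoint, Eqtn had 26.3% coverage. Its reads per kb were then 37.8 in place of 56.7.

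Tek, an angiopoietin receptor gene of endothelial cells, was covered less often than Eqtn before it and Ift74 beyond it. It spans 177 to 313 kb, and 38 of its 460 ends had a read (8.26%, 5.91 to 11.2%), at 3.10 reads per end. In 4 equal steps from the far to the near end 9 of 130, 9 of 99, 9 of 96 and 11 of 135 ends were covered, so the low level held across the gene. Between Tek and Ift74, 17 of 125 ends had a read (13.6%, 8.13 to 20.9%), an interval that overlaps those of both genes. The next 3 genes lie farther from Jun and were covered more often than Tek. Ift74, a gene of the intraflagellar transport machinery at 359 to 449 kb, had 52 of 262 ends covered (19.8%, 15.2 to 25.2%). Plaa, a gene for a ubiquitin-binding protein that activates phospholipase A2, had 26 of 155 (16.8%, 11.3 to 23.6%), and 26.4% with landmarks 20 kb nearer to Jun. Caap1, an inhibitor of caspase activation, had 28 of 180 (15.6%, 10.6 to 21.7%). Per end, Ift74 held 2.80 times, Plaa 3.61 times and Caap1 2.43 times the reads of Tek. The interval of Ift74 lies wholly above that of Tek. That of Plaa begins at 11.3%, barely above the upper limit of 11.2% in Tek, and that of Caap1 overlaps it slightly. The intervals of Ift74, Plaa and Caap1 overlap each other. With GTAC-holding fragments only, the ratios were 2.43, 5.17 and 2.10.

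Both small genes inside these bodies had intervals that overlap those of their hosts. Lrrc19, within Ift74, had 10 of 52 ends covered (19.2%, 9.63 to 32.5%), and Gm12657, within Plaa, 2 of 21 (9.52%, 1.17 to 30.4%). Beyond Caap1, as far as 1000 kb, reads were seen on 53 of 1758 ends (3.01%, 2.27 to 3.93%), an interval that overlaps that of the Cyp2j cluster.

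Each landmark was set beside the same distance on the other side. At the distance of Mysm1, the higher side had 97.3% of ends covered (93.1 to 99.2%), against 61.7% in the gene. At the distance of Tek it had 93.0% (90.5 to 95%), against 8.26%. The lower side at the distance of Fggy had 63 of 1449 ends covered (4.35%, 3.36 to 5.53%), against 85.1%, and Fggy held 81.0 times as many reads per end. At the distance of Hook1 the lower side had 5 of 230 ends covered (2.17%, 0.710 to 5%), and Hook1 was 32.0 times higher per end. At the distance of the Cyp2j cluster, both sides overlapped: 4.25% above and 3.99% (3.14 to 5%) below. From Caap1 to Hook1, the intervals of each landmark and of its counterpart at the same distance did not overlap.

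**Figure D4:**
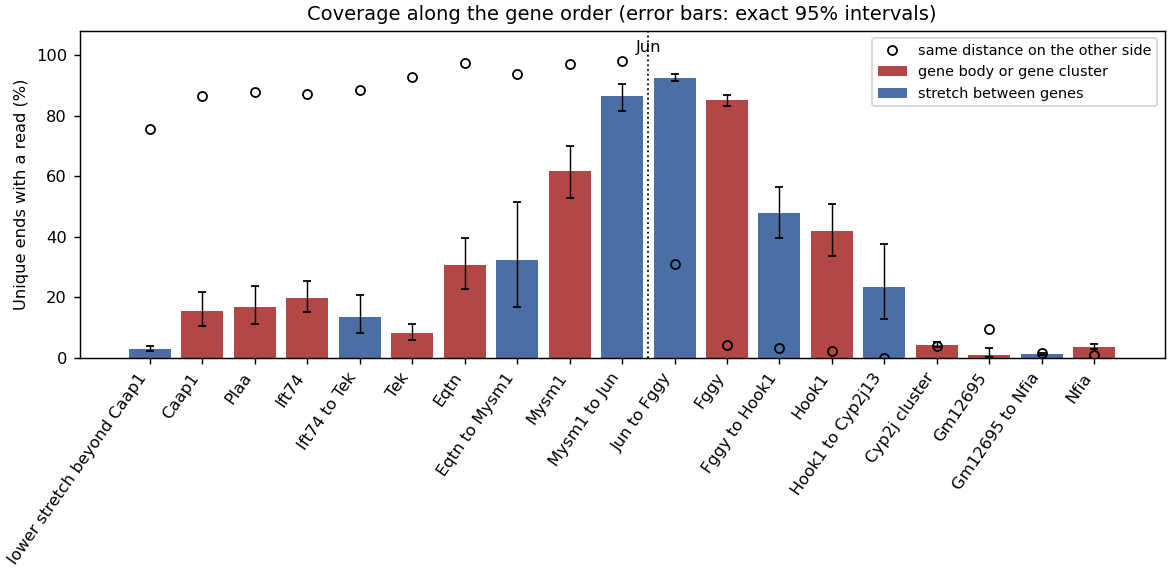
Percentage of unique ends with a read in each gene body or gene cluster (red) and each stretch between genes (blue), in chromosomal order with Jun at the dotted line; error bars are exact 95% intervals and open circles give the same distance on the other side of Jun. Coverage is 92.7% between Jun and Fggy and 85.1% in Fggy, drops to 42.0% in Hook1 and 4.25% in the Cyp2j cluster, and on the lower side is 8.26% in Tek between 30.6% in Eqtn and 19.8% in Ift74.

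The starts of the landmark genes were looked at as possible contact points. Of the 15 landmarks 14 have a promoter entry, and Eqtn has none. In 20 kb around the start, mean reads per end were above the mean of the 100 kb on either side for 3 of 14 genes, Caap1, Fggy and Cyp2j8. The median ratio of the 14 starts was 0.37. No such share was computed for windows away from gene starts. The count therefore cannot be read as particular to gene starts. The ratio was 1.83 at Caap1 (12.6 against 6.86 reads per end), 1.22 at Fggy (177 against 144) and 1.12 at Cyp2j8, where 1 of 56 ends had a read. It was 0.43 at Mysm1, 0.29 at Tek and 0.21 at Hook1, and by share of ends 0.48 at Tek and 0.67 at Hook1. The starts of Plaa (0.90) and Ift74 (0.91) lie at -449 and -438 kb from Jun and share part of their windows. With distance 0 on the Jun start their ratios were 1.29 and 1.42, both above 1, so their side of 1 depends on the placement. Around the starts of Cyp2j11 and Cyp2j5 no read was found on 80 and 52 ends, which allows shares of up to 3.75% and 5.77%. No start reached a ratio of 2 in these windows. Under other settings Cyp2j8 had 3.03 (5 kb on either side), Cyp2j5 5.75 (25 kb on either side) and Caap1 2.07 (distance 0 on the Jun start). The value at Cyp2j5 rests on few covered ends, as no 10 kb window from 1590 to 1640 kb had more than 2. The count of 3 was 6 by share of ends with a read, where Mysm1 had a ratio of 1.13, and 5 with 25 kb on either side, where Fggy had 0.98. Since the profile is steep near Mysm1 and Hook1, the flank on the Jun side enters their ratios. The start of Mysm1 lies at -73.1 kb, so its flank also crosses the viewpoint and takes in ends of the higher side. Those from 5 to 20 kb had a mean of 804 reads per end. The ratio at Mysm1 therefore does not compare it with the lower side alone.

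Windows of 10 kb were compared with the median of the windows within 100 kb on the same side. Of 197 windows with 10 or more unique ends, 11 on the lower side had surroundings with a median of 0 and gave no ratio. Of the other 186, 28 reached 2 times that median (15.1%), of which 5 were among the 98 higher-side windows (5.1%) and 23 among the 88 lower-side windows that gave a ratio (26.1%). With medians in place of means, 14 of 90 windows were called above Jun and 6 of 7 below, since 92 lower-side windows then had surroundings at 0. The count of 28 was 46 with windows of 5 kb, 12 with windows of 20 kb and 7 at a ratio of 3 or more. The 5 highest ratios of all were on the lower side. Those at 860 to 870, 960 to 970 and 930 to 940 kb rested on 1 end with a read each, at ratios of 19.4, 13.4 and 9.44. The other two were 610 to 620 kb (5.82, 6 of 44 ends covered) and 40 to 50 kb (3.85, 33 of 39 ends). All 7 lower-side windows between 20 and 90 kb were called, and their surroundings hold mostly windows farther from Jun.

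On the higher side the highest ratio lay inside Fggy. The window from 810 to 820 kb had 432 reads per end against a median of 113 around it (3.83 times, 29 of 30 ends covered), and the next one, 820 to 830 kb, had 237 (2.20 times). The window from 100 to 110 kb, within Junos, had the most reads of any from 10 kb outwards, 1068 per end, at 2.35 times its surroundings and with 40 of 41 ends covered. That from 490 to 500 kb, just before the start of Fggy, had 267 reads per end (2.01 times, 22 of 22 ends). That from 960 to 970 kb, within Hook1, had 44.6 (2.66 times, 14 of 29 ends). The call at 810 to 820 kb was also made under 8 alternatives computed for it, with ratios from 2.84 to 4.04. With GTAC-holding fragments only, those at 100 to 110, 490 to 500 and 820 to 830 kb had ratios of 1.93, 1.59 and 1.74 and were not called. In 20 kb windows, the places at 100, 490 and 960 kb had 1.81, 1.55 and 1.78 and were not called. The window at 490 kb had 1.93 with surroundings of 200 kb, and that at 820 kb 1.65 with 50 kb. All 5 were called with capped ends and with ends of any multiplicity. The window in Hook1 had a ratio of 0.487 when its surroundings reached 200 kb.

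The 3 ends with the most reads at 20 kb or more all lay in the window from 100 to 110 kb. They belong to the fragments listed at positions 94827377 (3295 reads), 94829473 (3096 reads) and 94826497 (2571 reads) of chromosome 4 in mm9, 105 to 108.4 kb from the viewpoint. The share held by the 10 highest ends differed between stretches, but so did the number of covered ends. From 5 to 20 kb, both sides together, the 10 highest ends held 36.7% of the reads, and between Mysm1 and Jun 21.8%. In Fggy the 10 highest ends held 5.73% of the reads and the highest held 2136. Between 20 kb and Fggy the 10 highest held 4.96%. On the lower side from Tek to Caap1 the 10 highest held 22.2% of 7589 reads. In the order given, these stretches had 120, 214, 1228, 1685 and 167 covered ends. The top 1% of covered ends, rounded up to 2, 3, 13, 17 and 2 ends, held 10.8%, 8.05%, 6.91%, 7.81% and 5.48% of their reads. The value was lowest from Tek to Caap1. Rounding takes in more than 1% where few ends are covered, so these shares still depend on that number. The stretch from 5 to 20 kb overlaps that between Mysm1 and Jun.

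The level of an end also went with the restriction map. Of the ends from 20 kb to the far end of Fggy, 48.1% lay on fragments with a GTAC site. Those ends had a read in 97.6% of cases (96.7 to 98.3%, 1571 ends) with a mean of 375 reads, and the ends of fragments without a site in 81.5% (79.5 to 83.3%, 1694 ends) with a mean of 80.4. The first kind held 81.2% of the reads. The ratio of the means was 4.67 on the higher and 7.47 on the lower side of Jun, and 5.94 on the higher side of the Ccl2 library over the same distances. Among fragments with a site, the mean was 591 reads where the first site lay 100 to 200 bp from the end, 75.3 at 400 to 800 bp and 4.43 at 800 bp or more. Among fragments without one, coverage was 62.6% below 50 bp of length, 89.5% at 200 to 400 bp and 42.1% at 800 bp or more (38 ends). The share of ends on GTAC-holding fragments was 49.6% in Fggy, 62.3% in Hook1, 44.3% in Tek and 53.4% in Ift74. On such fragments alone, coverage was 96.1% in Fggy, 53.5% in Hook1, 12.7% in Tek and 25% in Ift74, in the same order as over all ends.

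**Figure D5:**
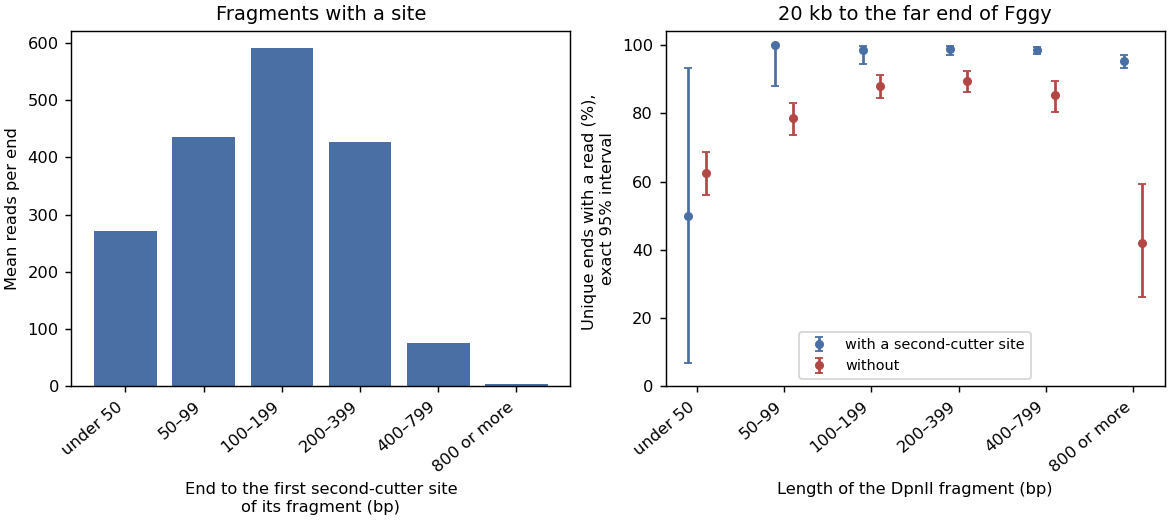
Left: mean reads per end by the distance in bp from the end to the first second-cutter site of its fragment. Right: percentage of ends with a read by DpnII fragment length in bp, with exact 95% intervals, for fragments with (blue) and without (red) such a site; both cover 20 kb to the far end of Fggy. Means peak at 591 reads for 100 to 200 bp, and fragments of 50 bp or more without a site are covered less often than those of the same length with one.

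Both ends of a fragment were compared. Of 1482 fragments of this stretch with both ends unique, 1217 had reads at both ends, 208 at 1 end and 57 at neither. Over the 85 windows of 10 kb from 10 to 870 kb with at least 5 ends of each kind, the mean of the 3′ ends and that of the 5′ ends had a Spearman correlation of 0.79. The points share library, fragments and distance, so this describes the evenness of the profile and is no replicate.

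The Ccl2 library, at the same distances from its own viewpoint on chromosome 11, was covered less often than Fggy on both sides. At the distances of Fggy, reads were seen on 16.5% of its higher-side ends (14.6 to 18.5%) and 2.22% of its lower-side ends (1.55 to 3.07%). At the distances between Jun and Fggy the shares were 35.9% and 25.9%. At those of the Cyp2j cluster the Ccl2 library was covered more often than the 4.25% of the cluster, with 8.53% (7.31 to 9.88%) on the higher side and 5.67% (4.77 to 6.69%) on the lower side, the latter overlapping it. At 5 kb or more the Ccl2 library held 901507 reads on unique ends, 50.9% of them within 1000 kb. The Jun library held 1098887, with 78.3% within 1000 kb, and the shares were not adjusted for this. Each viewpoint has 1 library, so the difference in coverage was not tested.

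The next protein-coding genes beyond the landmarks differed. Gm12695, after the Cyp2j genes at 1671 kb, had 2 of 228 ends covered (0.877%, 0.106 to 3.13%). Tusc1, a short gene of 1.36 kb at 1717 kb on the lower side, had 4 of 6 ends covered. With 10 kb on either side, 13 of 76 ends had a read around Tusc1 (17.1%, 9.43 to 27.5%) at 8.70 reads per end. In the 100 kb on each side of that window it was 25 of 635 ends (3.94%, 2.56 to 5.76%) at 1.54 reads per end. The 100 kb bin that holds Tusc1 had 7.37% of its ends covered, the eighth highest of 1457 bins beyond 1000 kb with 50 or more ends, whose median was 0.719%. Nfia, a nuclear factor I gene at 2526 to 3067 kb that was added after its values were seen, had 76 of 2137 ends covered (3.56%, 2.81 to 4.43%), and the stretch between Gm12695 and Nfia had 31 of 2671 (1.16%, 0.790 to 1.64%).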

How the data were processed

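4C-seq was run on BMDMs with 1 library per viewpoint. Per the labels' protocols, chromatin was fixed with 2% formaldehyde for 10 min, cut with DpnII and then with the cutter written as Csp61, and 8 PCRs from 200 ng of template were pooled. Reads were placed on mm9 (per the submitters' processing notes). Aligner and read weighting were not given in the sources used here. Per fragment end, the deposited columns hold estimated counts, with positions in 16 bp bins and no scaling to depth (72.8% of low values lie within 0.1 of a whole number). They were rounded here. Per the file headers each end also has a multiplicity, and each fragment has lengths to sites of the second cutter; the header is displaced by 1 column against the values. 83.3% of the 596305 ends with a value occur once.

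The viewpoint is the fragment whose end has the most reads (462999, 28.0% of reads on unique ends). Each interval's percentage of ends with a read, its reads per end, windows and gene-start ratios were computed in Python 3.11.15 with scipy 1.17.1, and checked on reads simulated with known answers. No test between samples was made. Named are the 15 landmarks, other protein-coding genes within 1000 kb, the next gene on each side, the 5 called windows with the highest ratio and the 3 ends with most reads. The windows called on the higher side and Nfia were named after their values were seen. Members, landmarks and lists were chosen with earlier results of these data known. Alternatives covered the minimum of reads, end kind, multiplicity, placement, GTAC sites, capping, window sizes and surroundings.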

Additional observations from a re-analysis of the deposited data

Results flagged for a closer look

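Multi-copy fragment ends, which are not members and enter the text only under the alternative with any multiplicity and in the count of all ends, carried reads inside Fggy. Of 61 such ends 53 had a read (86.9%, 75.8 to 94.2%), with 128 reads per end. The unique ends of Fggy had a similar share, 85.1% (83.2 to 86.9%), with 152 reads per end. Since a multi-copy end occurs more than once in the genome, its reads cannot be assigned to the copy in Fggy. Over chromosome 4 at 5 kb or more, 3128 of 99558 such ends had a read (3.14%).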

How the results depend on the processing

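Coverage of Fggy, 85.1%, was 82.0% with at least 3 reads per end and 96.1% on GTAC-holding fragments, and between 84.2% and 85.9% under the other alternatives. Fggy over Hook1 in reads per end, 5.32, was 4.84 with the first end only, 5.88 with the second end only, 5.74 with ends of any multiplicity, 6.98 and 9.09 with landmarks 20 kb farther from and nearer to Jun, 6.83 on GTAC-holding fragments and 6.02 with distance 0 on the Jun start. Ift74 over Tek, 2.80, was in the same order without the last 2.13, 4.19, 2.44, 3.36, 2.49 and 2.43; for coverage, 2.40, it lay between 1.83 and 3.12. Gene starts above their flanks, 3 of 14, were 5 with 25 kb on either side, 6 by share of ends with a read, 5 with distance 0 on the Jun start and 5 on GTAC-holding fragments. The ratio at Fggy was 0.98 with 25 kb and that at Mysm1 1.13 by share of ends, both on the other side of 1. Called windows, 28, numbered 46 with 5 kb windows, 12 with 20 kb windows and 7 at a ratio of 3. The top 1% of covered ends held 15.5% of reads, 14.8% from 10 kb outwards and 17.5% with any multiplicity. The cause of these shifts was not tested. Distance 0 on the Jun start, and GTAC-holding fragments for windows and gene starts, were added after seeing the data. Placing Jun by its own promoter could not be run, since that sequence holds no GATC. With 1 library nothing could be left out. No paired analysis was possible because each viewpoint has 1 library.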
